A study of Homo sapiens with 12 samples.

Results

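The HOX cluster genes are the homeobox genes of the 4 human HOX clusters. They were taken from the count table by symbol, as the protein-coding genes named HOXA, HOXB, HOXC or HOXD with a paralog number. The rule found 39 genes among 60656 listed gene IDs, of which 19891 were protein-coding. There were 11 genes in HOXA (chromosome 7, minus strand), 10 in HOXB (chromosome 17, minus strand), 9 in HOXC (chromosome 12, plus strand) and 9 in HOXD (chromosome 2, plus strand). On GRCh38 the clusters span chr7:27092993-27200106, chr17:48528526-48729178, chr12:53938765-54056030 and chr2:176092891-176190907.

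HOX proteins are homeodomain transcription factors that give cells of the embryo their position along the head-to-tail axis and along the limbs. Genes at one end of a cluster (low paralog numbers) are used toward the head, and genes at the other end (high numbers) are used toward the tail and the limb tips. They bind DNA together with PBX and MEIS or PKNOX homeodomain partners. Adult cells, melanocytes and skin fibroblasts among them, often keep the HOX pattern of the body site they came from, held off by Polycomb complexes or on by Trithorax/MLL complexes.

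RNA was sequenced from 3 established human lines that the labels call metastatic melanoma, A2058, A375 and SKMEL-5. Hypoxic cells of each line were kept in 1% oxygen and normoxic cells in atmospheric oxygen, and the length of the exposure is not given in the sources used here. Each line and condition had 2 libraries, called biological duplicates in the design text, which gave 12 libraries in 6 groups: A2058 hypoxia and normoxia, A375 hypoxia and normoxia, and SKMEL-5 hypoxia and normoxia. The labels name no other treatment or genetic change in any group. Each line comes from a single tumour grown in culture, and p-values measure only the spread between these libraries.

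The libraries held 33831569 to 54202819 counts, and the upper limit for a gene without counts (3 counts) came to 0.0506 to 0.0902 CPM (counts scaled by library size and TMM factor, counting error only). CA9, an enzyme gene that the oxygen-sensing HIF factors switch on, had 352 to 725 CPM in the 6 hypoxic libraries and 0.0826 to 19.0 CPM in the 6 normoxic ones. The neural crest and melanoma factor SOX10 had 765 to 1684 CPM in all 12 libraries. The pigment genes TYR and MLANA had 0 counts in all 8 A375 and SKMEL-5 libraries and were present in all 4 A2058 libraries. The A375 and SKMEL-5 libraries were very alike: their log2 CPM correlated at 0.912 to 0.990 over 19636 genes, against 0.917 to 0.982 among the A375 libraries themselves, while A2058 and A375 libraries reached 0.810 to 0.880. MITF, the melanocyte master factor, nevertheless had 17.2 to 28.3 CPM in A375 and 91.3 to 173 CPM in SKMEL-5. Whether the labels of these 2 lines hold was not tested, and each comparison with A2058 is given for both. In each line 1 hypoxic library stood apart from its partner (A2058 replicate 2, A375 replicate 1 and SKMEL-5 replicate 1): 3.71% of the tested genes were at least 2-fold higher in all 3 of them, and 4.95% at least 2-fold lower. Summed markers of fibroblasts came to 90.3 to 141 CPM in A2058 hypoxia and 30.2 to 35.3 CPM in A2058 normoxia, and to 10.6 to 21.7 CPM in the other 4 groups. Those of keratinocytes came to 43.6 to 144 CPM, and those of blood and endothelial cells to at most 15.4 and 11.9 CPM. Their part in the HOX results was not tested. In such bulk RNA, fewer cells using a gene and less RNA per cell cannot be told apart.

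All 3 lines used most of the HOX genes, the gene at the tail end of every cluster included. Of the 39 genes, 31 were detected in A2058, 28 in A375 and the same number in SKMEL-5, taking at least 1 CPM in all 4 libraries of a line as detected. The genes detected in A375 were those detected in SKMEL-5, and A2058 added HOXA11, HOXD3 and HOXD4. In each cluster and line the most posterior gene detected was paralog 13: HOXA13, HOXB13, HOXC13 and HOXD13. All HOX genes together came to 595 to 901 CPM in A2058, 607 to 951 CPM in A375 and 559 to 903 CPM in SKMEL-5, so the summed HOX level overlapped between the lines.

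The HOXB cluster gave the greatest part of the HOX counts in the mean of each line: 53.8% ± 5.26 for A2058, 51.5% ± 7.14 for A375 and 51.2% ± 7.47 for SKMEL-5 (SD, n = 4 libraries each). HOXA gave 16.6% ± 3.08 for A2058, 12.8% ± 2.59 for A375 and 15.1% ± 1.30 for SKMEL-5. HOXC gave 19.7% ± 1.52 for A2058, 31.8% ± 10.4 for A375 and 29.3% ± 8.67 for SKMEL-5. HOXD gave 9.95% ± 1.26 for A2058, 3.92% ± 0.799 for A375 and 4.44% ± 0.333 for SKMEL-5. The 4 A2058 libraries, at 8.69% to 11.4%, lay above the 8 others for HOXD, at 2.82% to 4.81%. They lay below them for HOXC, at 18.2% to 21.1% against 24.2% to 47.4%. The HOXA and HOXB shares overlapped between the lines. In 2 libraries HOXC gave more than HOXB, A375 hypoxia replicate 1 (47.4% and 40.8%) and SKMEL-5 hypoxia replicate 1 (42.2% and 40.2%).

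**Figure D1:**
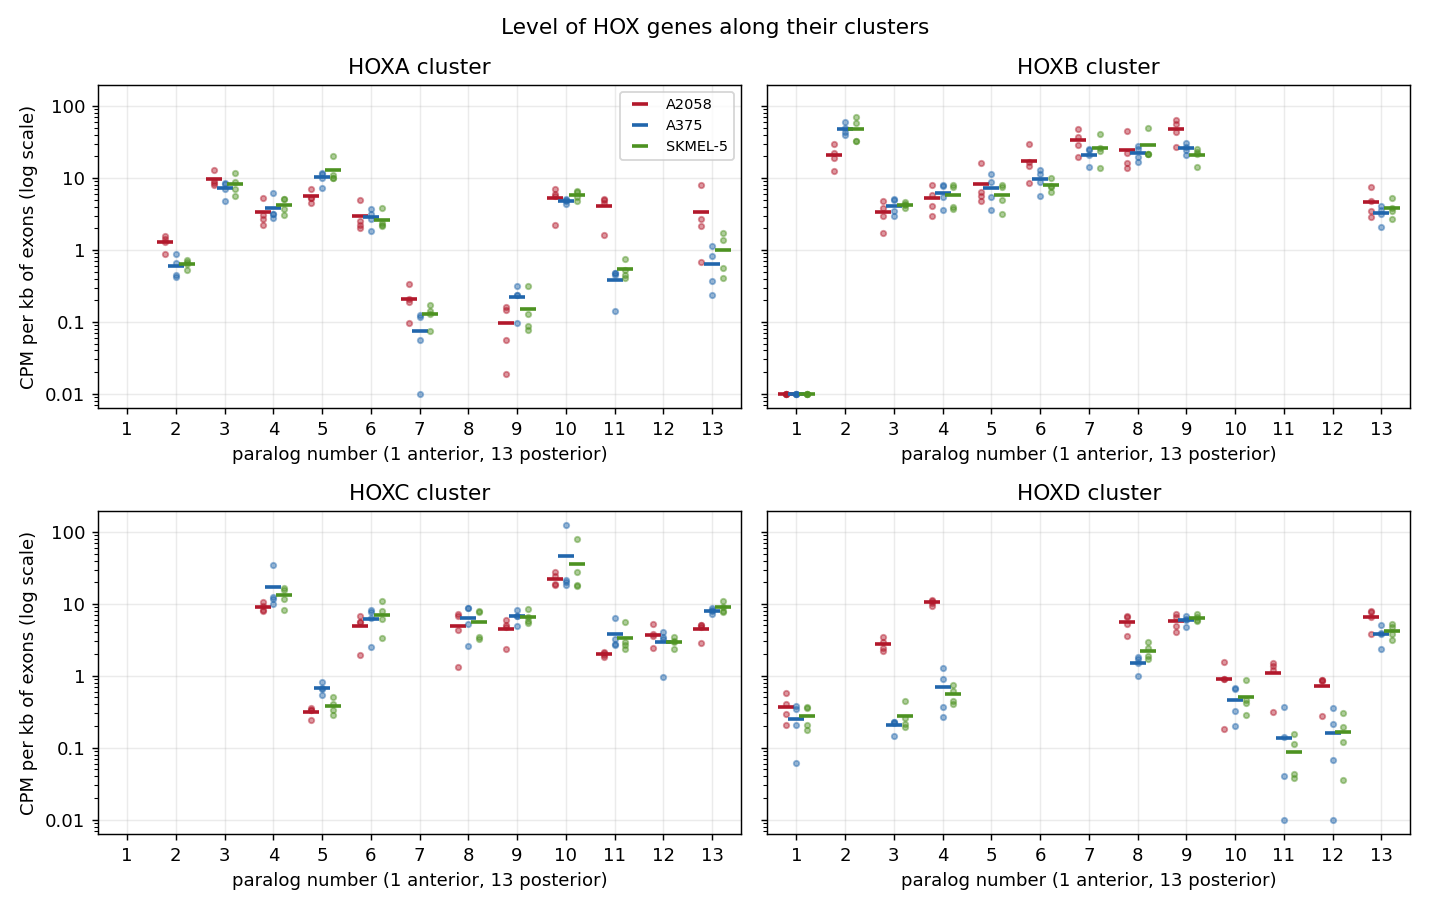
Level of HOX genes in CPM per kb of merged exons (log axis) against its paralog number, 1 panel per cluster, with 4 libraries per line as points and their mean as a bar; values of 0 are drawn at 0.01. The A2058 points lie above the others at HOXA11, HOXD3, HOXD4 and HOXD8 and below them at HOXA5, HOXB2, HOXC11 and HOXC13, and HOXB1 is at 0 throughout.

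Levels of different genes were compared per kb of merged exons. In A2058 the thoracic gene HOXB9 led with 47.7 ± 16.4 CPM per kb (SD, n = 4), followed by HOXB7 with 33.6 ± 12.1, HOXB8 with 24.4 ± 14.2, HOXC10 with 22.3 ± 4.56 and the hindbrain gene HOXB2 with 20.8 ± 6.995. In A375 HOXB2 led with 47.9 ± 8.75 CPM per kb, followed by HOXC10 with 45.8 ± 51.6, HOXB9 with 26.0 ± 4.22, HOXB8 with 22.6 ± 5.12 and HOXB7 with 21.2 ± 5.11. In SKMEL-5 HOXB2 again led with 48.4 ± 18.7 CPM per kb, followed by HOXC10 with 36.1 ± 30.0, HOXB8 with 28.5 ± 13.8, HOXB7 with 26.2 ± 11.5 and HOXB9 with 21.0 ± 4.79. The same 5 genes headed all 3 orders by merged exons, and the libraries of neighbours among them overlapped. By the length of the longest transcript HOXC4 was at place 3 in A375 and place 5 in SKMEL-5, ahead of HOXB7 in A375 and of HOXB9 in SKMEL-5, each at place 6. HOXB7 is known in melanoma as an activator of the growth factor gene FGF2. Further down the order, neighbours whose libraries did not overlap included HOXC11 above HOXA2 and HOXA9 above HOXB1 in A2058, and HOXD8 above HOXA13 and HOXD11 above HOXB1 in SKMEL-5.

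Of the genes toward the tail end, HOXB13, HOXD13 and HOXC12 were present at moderate level. HOXB13, known from prostate and tail development, had 9.89 to 26.0 CPM in A2058, 7.12 to 13.99 in A375 and 9.44 to 18.1 in SKMEL-5. HOXD13, which shapes the digits, had 8.45 to 18.0 CPM in A2058, 5.32 to 11.3 in A375 and 7.06 to 11.8 in SKMEL-5. HOXC12 had 8.16 to 17.3, 3.16 to 13.5 and 7.92 to 11.5 CPM in these lines. The libraries of the 3 lines overlapped for each of these genes. HOXA13 was lower in 2 lines, at 0.644 ± 0.424 CPM per kb in A375 and 1.01 ± 0.631 in SKMEL-5 (SD). HOXB13 had 3.22 ± 0.852 and 3.82 ± 1.04 CPM per kb there. HOXD11 and HOXD12 were detected in no line.

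A further 10 detected genes were called between no lines. HOXA3, which patterns the thymus and parathyroid, had 34.0 to 56.4 CPM in A2058, 20.7 to 37.4 CPM in A375 and 24.1 to 50.2 CPM in SKMEL-5. HOXB3 had 12.8 to 35.7, 21.9 to 38.1 and 28.4 to 34.2 CPM, and HOXB5 had 9.80 to 32.8, 7.22 to 23.4 and 6.54 to 16.4 CPM in A2058, A375 and SKMEL-5. The libraries of the lines overlapped for these genes. HOXA4 lay between 3.83 and 10.8 CPM over all 12 libraries, HOXA6 between 2.34 and 6.38, HOXA10 between 8.31 and 26.2, HOXC9 between 3.91 and 14.1 and HOXD9 between 7.70 and 13.6. HOXC4 had 21.6 to 29.1 CPM in A2058 and 22.5 to 93.5 CPM elsewhere, with its highest value in A375 hypoxia replicate 1. HOXA2 was among the lowest, at 2.19 to 3.90 CPM in A2058 and 1.05 to 2.19 CPM elsewhere.

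Of the 39 genes, 8 were detected in no line. HOXB1, an early hindbrain gene, had 0 counts in all 12 libraries. HOXA7 had 0 to 38 counts per library and at most 0.800 CPM, and HOXA9, whose overexpression drives leukaemias, had 2 to 42 counts and at most 0.954 CPM, although their neighbours HOXA6 and HOXA10 were detected in all 3 lines. HOXC5 had 0.431 to 1.49 CPM, HOXD1 had 0.120 to 1.14 CPM and HOXD10 had 0.496 to 4.23 CPM. HOXD11 and HOXD12 reached 1 CPM in A2058 libraries only, though not in all 4. Shared exons limit such low values: 15 of the 39 genes share no exon base with another listed gene, 10 share more than 20%, and HOXA7 shares 62.5% of its exon bases, the highest value. How the authors' counting treated shared bases and strand is not given in the sources used here.

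Promoter sequence from RefSeq (GRCh38.p14, the 250 bases before each start) was at hand for 20 of the 39 genes. The median ratio of observed to expected CpG was 0.888 over these 20 windows and 0.558 over 35116 promoters of all genes, with a median GC content of 59.0% and 58.0%. HOXB1, with no count in these libraries, had a ratio of 0.343. The lowest ratio was that of HOXD4 (0.287), which was detected in A2058. HOXA9, detected in no line, had the highest (1.34), and HOXA7, also detected in no line, had 0.9. A link between this ratio and the RNA level was not tested. The HOXB1 window is printed as the promoter of the silent gene (chr17:48531012-48531261, minus strand).
HOXB1: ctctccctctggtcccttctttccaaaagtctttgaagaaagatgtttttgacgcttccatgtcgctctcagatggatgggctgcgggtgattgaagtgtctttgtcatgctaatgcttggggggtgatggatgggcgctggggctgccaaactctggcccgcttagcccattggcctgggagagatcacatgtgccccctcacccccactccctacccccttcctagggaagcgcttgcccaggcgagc

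The lines differed in a set of HOX genes that was led by HOXD. Against A375, A2058 had higher levels of HOXD3, HOXD4, HOXD8, HOXD11, HOXD12, HOXA11, HOXA13 and HOXB9 and lower levels of HOXA5, HOXB2 and HOXC13. Against SKMEL-5 the same 11 genes differed in the same directions, and HOXB6 was also higher. A gene was called when its adjusted p was under 0.05 in edgeR's quasi-likelihood test, with Benjamini-Hochberg adjustment over all 19636 tested genes. Of the 38 HOX genes tested (HOXB1 was not), 11 or 28.9% were called against A375, where 27.6% of all tested genes were called, and 12 or 31.6% against SKMEL-5, where 26.8% of all were called. The share of HOX genes called was thus near that of all genes. Higher in A2058 were 8 of 38 against A375 and 9 of 38 against SKMEL-5, beside 13.4% and 12.9% of all genes; lower were 3 in each case, beside 14.2% and 13.9%. In the HOXD cluster 5 of 9 genes were higher and none was lower in either comparison, and the median log2 difference was 1.88 against A375 and 1.31 against SKMEL-5, where the medians of all tested genes were -0.06 and -0.05. In HOXC 1 of 9 was lower and none was higher, with medians of -0.76 and -0.53. HOXA and HOXB each had called genes in both directions.

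HOXD4, an anterior HOXD gene, had 16.0 and 16.7 CPM in A2058 hypoxia and 13.5 and 15.1 CPM in A2058 normoxia. It had 0.386 to 1.87 CPM in the 4 A375 libraries and 0.593 to 1.08 CPM in the 4 SKMEL-5 libraries. The 4 A2058 libraries were all above the other 8, with a log2 difference of 4.15 ± 0.37 from A375 (SE, adjusted p = 1.97e-05, edgeR) and 4.25 ± 0.37 from SKMEL-5 (adjusted p = 1.67e-05). HOXD3, its neighbour and a regulator of cell adhesion genes, had 12.1 and 8.68 CPM in A2058 hypoxia and 10.5 and 7.82 CPM in A2058 normoxia. It had 0.523 to 0.812 CPM in A375 and 0.688 to 1.57 CPM in SKMEL-5. All 4 A2058 libraries were again above the others, by 3.74 ± 0.39 (adjusted p = 5e-05, edgeR) and 3.36 ± 0.38 on the log2 scale (adjusted p = 9.11e-05).

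HOXA11, needed with HOXD11 for the forearm and kidney, had 11.7 and 3.68 CPM in A2058 hypoxia and 10.5 and 11.4 CPM in A2058 normoxia. It had 0.331 to 1.11 CPM in A375 and 0.954 to 1.74 CPM in SKMEL-5. The A2058 libraries did not overlap the others, the lowest of them being hypoxia replicate 2, and the log2 differences were 3.39 ± 0.50 and 2.91 ± 0.49 (adjusted p = 0.000518 and 0.00122, edgeR). Its antisense neighbour HOXA11-AS, which overlaps it, was higher in A2058 too, by 3.22 ± 0.48 and 3.27 ± 0.48 (adjusted p = 0.000564 and 0.000523). Reads of the 2 genes cannot be told apart if the counting took no account of strand.

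HOXD8 had 13.9 and 17.6 CPM in A2058 hypoxia and 17.2 and 9.44 CPM in A2058 normoxia, against 2.59 to 4.73 CPM in A375 and 4.47 to 7.75 CPM in SKMEL-5. No A2058 library overlapped the others, and the log2 differences were 1.88 ± 0.35 and 1.31 ± 0.35 (adjusted p = 0.00242 and 0.0166, edgeR). HOXD11 had 2.91 and 3.22 CPM in A2058 hypoxia and 2.54 and 0.661 CPM in A2058 normoxia. It had 0 to 26 counts in the A375 libraries (at most 0.782 CPM) and 4 to 18 counts in the SKMEL-5 libraries (at most 0.323 CPM). The lowest A2058 library lay under the highest of A375, and the log2 differences were 3.77 ± 0.72 and 3.81 ± 0.72 (adjusted p = 0.00271 and 0.00245). The difference of HOXD11 from A375 was 5.80 without A375 normoxia replicate 1, and without A2058 normoxia replicate 1 the differences were 3.14 and 3.18. HOXD12 had 1.16, 0.374, 1.18 and 1.13 CPM in A2058, at most 0.473 CPM in A375 and at most 0.403 CPM in SKMEL-5, with log2 differences of 2.75 ± 0.71 and 2.30 ± 0.67 (adjusted p = 0.0147 and 0.0267). The difference of HOXD12 from A375 was 4.84 without A375 hypoxia replicate 2 and 2.22 without A2058 hypoxia replicate 1. The other genes of HOXD, HOXD1, HOXD9, HOXD10 and HOXD13, were not called.

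Among the genes higher in A2058, HOXA13 had log2 differences of 2.34 ± 0.46 and 1.67 ± 0.45 (adjusted p = 0.00335 and 0.0186, edgeR), and HOXB9 of 0.88 ± 0.29 and 1.18 ± 0.29 (adjusted p = 0.0442 and 0.0116). HOXB6 was higher by 1.04 ± 0.33 against SKMEL-5 (adjusted p = 0.0371) and by 0.78 ± 0.33 against A375, where it was not called (adjusted p = 0.104).

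HOXB2 had 44.8 and 29.3 CPM in A2058 hypoxia and 51.5 and 68.7 CPM in A2058 normoxia. It had 91.5 to 139 CPM in A375 and 76.5 to 164 CPM in SKMEL-5. Every A2058 library was below the other 8, and the log2 differences were -1.24 ± 0.24 and -1.18 ± 0.24 (adjusted p = 0.00314 and 0.00427, edgeR). HOXA5, a lung and thoracic gene, had 7.77 to 12.1 CPM in A2058, 12.6 to 20.2 CPM in A375 and 17.2 to 34.8 CPM in SKMEL-5. HOXC13, which controls hair and nail keratin genes, had 6.96 to 12.3 CPM in A2058, 17.7 to 21.3 CPM in A375 and 18.5 to 26.7 CPM in SKMEL-5. Neither gene overlapped between A2058 and the other lines. The log2 differences were -0.88 ± 0.30 and -1.20 ± 0.30 for HOXA5 (adjusted p = 0.0491 and 0.0127) and -0.87 ± 0.27 and -1.02 ± 0.27 for HOXC13 (adjusted p = 0.0324 and 0.0161).

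Taken by overlap alone, 4 of 38 HOX genes had all 4 A2058 libraries above the other 8 (HOXA11, HOXD3, HOXD4 and HOXD8; 10.5%, beside 10.6% of all tested genes). A further 4 had them all below (HOXA5, HOXB2, HOXC11 and HOXC13; 10.5%, beside 11.9%). HOXC11 had 6.01 to 6.95 CPM in A2058 and 7.73 to 21.0 CPM in the others and was not called (adjusted p = 0.0823 against A375 and 0.152 against SKMEL-5, edgeR).

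**Figure D2:**
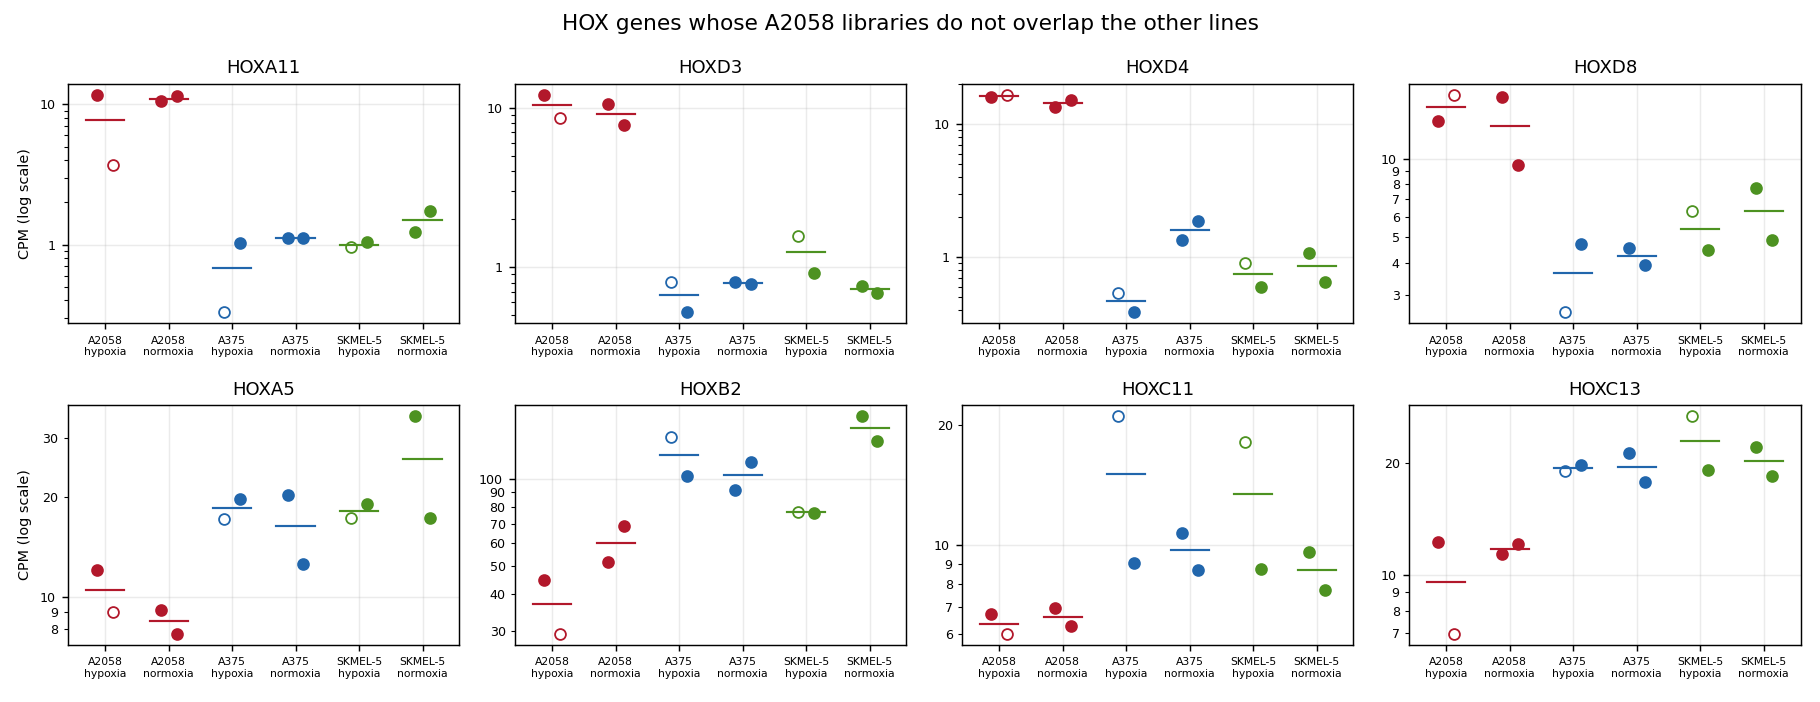
CPM (log axis) of the 8 HOX genes whose A2058 libraries do not overlap those of the other lines, by line and oxygen condition; each point is 1 library, bars are means of 2, and open points are the 3 hypoxic libraries that stood apart. HOXA11, HOXD3, HOXD4 and HOXD8 are above the other lines in A2058, and HOXA5, HOXB2, HOXC11 and HOXC13 are below them.

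HOXA11, HOXD3 and HOXD4 were called in both comparisons under every alternative run, including normoxic or hypoxic groups compared alone within the 12-library fit. HOXA13 was so against A375, but against SKMEL-5 it was not called without A2058 hypoxia replicate 2 (adjusted p = 0.0927), A2058 normoxia replicate 1 (0.0863), SKMEL-5 hypoxia replicate 1 (0.0554) or SKMEL-5 normoxia replicate 2 (0.072), by edgeR. Leaving out each of the 12 libraries in turn ended the call of HOXB9 against A375 in 11 fits (adjusted p up to 0.202), of HOXA5 in 10 (up to 0.189) and of HOXC13 in 8 (up to 0.117), and that of HOXB6 against SKMEL-5 in 8 (up to 0.145). Of the other calls, that of HOXD12 against A375 was lost without A2058 hypoxia replicate 1 (0.0599) or A375 normoxia replicate 2 (0.0691), and that against SKMEL-5 in 6 fits (0.0529 to 0.108). That of HOXD8 against SKMEL-5 was lost without A2058 hypoxia replicate 2 (0.0525), A2058 normoxia replicate 1 (0.0686), or SKMEL-5 hypoxia or normoxia replicate 2 (0.0638 and 0.0725). That of HOXC13 against SKMEL-5 was lost in 4 fits (0.0604 to 0.0696), that of HOXA5 in 2 (0.0518 and 0.0658) and that of HOXB9 in 2 (0.0550 and 0.0560). Without the 3 libraries that stood apart each hypoxic group kept a single library, so no count of called HOX genes is given for that fit. The count of called HOX genes against A375 fell to 7 without A375 normoxia replicate 2, where 18.7% of all tested genes were called. Against SKMEL-5 it fell to 6 without A2058 normoxia replicate 1 and to 7 without SKMEL-5 normoxia replicate 2, where 20.1% and 19.8% of all were called.

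The promoters of 2 of the genes that were higher in A2058 are printed (RefSeq, GRCh38.p14). Capitals mark the cores ACGTG and GCGTG of the element that HIF factors bind, on either strand, where CACGTG holds a core on both strands and is counted on each. HOXA11 (chr7:27185233-27185482, minus strand) has cores that begin 229 and 25 bases before the start, and HOXD8 (chr2:176129455-176129704, plus strand) has none in this window.
HOXA11: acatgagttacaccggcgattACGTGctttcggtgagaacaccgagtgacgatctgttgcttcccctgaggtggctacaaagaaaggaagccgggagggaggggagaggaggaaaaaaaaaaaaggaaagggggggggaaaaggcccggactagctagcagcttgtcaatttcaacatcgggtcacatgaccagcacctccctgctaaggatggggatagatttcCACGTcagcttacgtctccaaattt
HOXD8: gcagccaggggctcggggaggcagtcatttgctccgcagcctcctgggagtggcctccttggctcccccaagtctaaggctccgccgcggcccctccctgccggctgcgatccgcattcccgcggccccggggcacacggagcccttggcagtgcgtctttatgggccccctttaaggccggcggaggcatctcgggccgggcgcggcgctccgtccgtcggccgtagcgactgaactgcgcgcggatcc

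No HOX gene passed the test between A375 and SKMEL-5. Of 38 genes, 0 were called by edgeR, beside 0.0102% of all tested genes (0.00509% in each direction), and 0 had an unadjusted p under 0.05, beside 1.78% of all; DESeq2 and limma-voom also called 0. The median log2 difference, A375 minus SKMEL-5, was -0.11 over the HOX genes and 0.00 over all genes. HOXC5 was the 1 gene of 38 (2.63%, beside 0.662% of all genes) whose 4 A375 libraries, at 0.977 to 1.49 CPM, lay above the 4 SKMEL-5 libraries, at 0.521 to 0.911 CPM. HOXC5 shares 59.9% of its exon bases with other listed genes.

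The partners of HOX proteins differed between the lines as well. PKNOX2 had 24.6 to 36.6 CPM in A2058, 0.902 to 8.41 CPM in A375 and 2.55 to 12.3 CPM in SKMEL-5, with log2 differences of 2.87 ± 0.41 and 2.46 ± 0.40 (adjusted p = 0.000408 and 0.00101). MEIS2 had 44.7 to 62.9 CPM in A2058, 11.4 to 27.8 CPM in A375 and 15.6 to 33.8 CPM in SKMEL-5 (log2 differences of 1.30 ± 0.33 and 1.04 ± 0.33, adjusted p = 0.0141 and 0.0392). Leaving out each library in turn ended the MEIS2 call against SKMEL-5 in 9 of 12 fits (adjusted p up to 0.109) and against A375 in 2, without A375 normoxia replicate 1 (0.0522) or 2 (0.0606). The PKNOX2 difference from A375 was 3.51 without A375 hypoxia replicate 2. A2058 libraries did not overlap the others for either gene. Of all tested genes, 10.6% had all 4 A2058 libraries above the other 8. Of the 9 genes of PBX, MEIS and PKNOX type, 3 were higher in A2058 than in A375 and than in SKMEL-5 (PBX2, MEIS2 and PKNOX2). Of all tested genes, 13.4% were higher against A375 and 12.9% against SKMEL-5. MEIS3 was lower in A2058 in both comparisons (-1.35 ± 0.44 and -1.60 ± 0.44, adjusted p = 0.0404 and 0.0198, edgeR), and PBX4 was lower against A375.

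**Figure D3:**
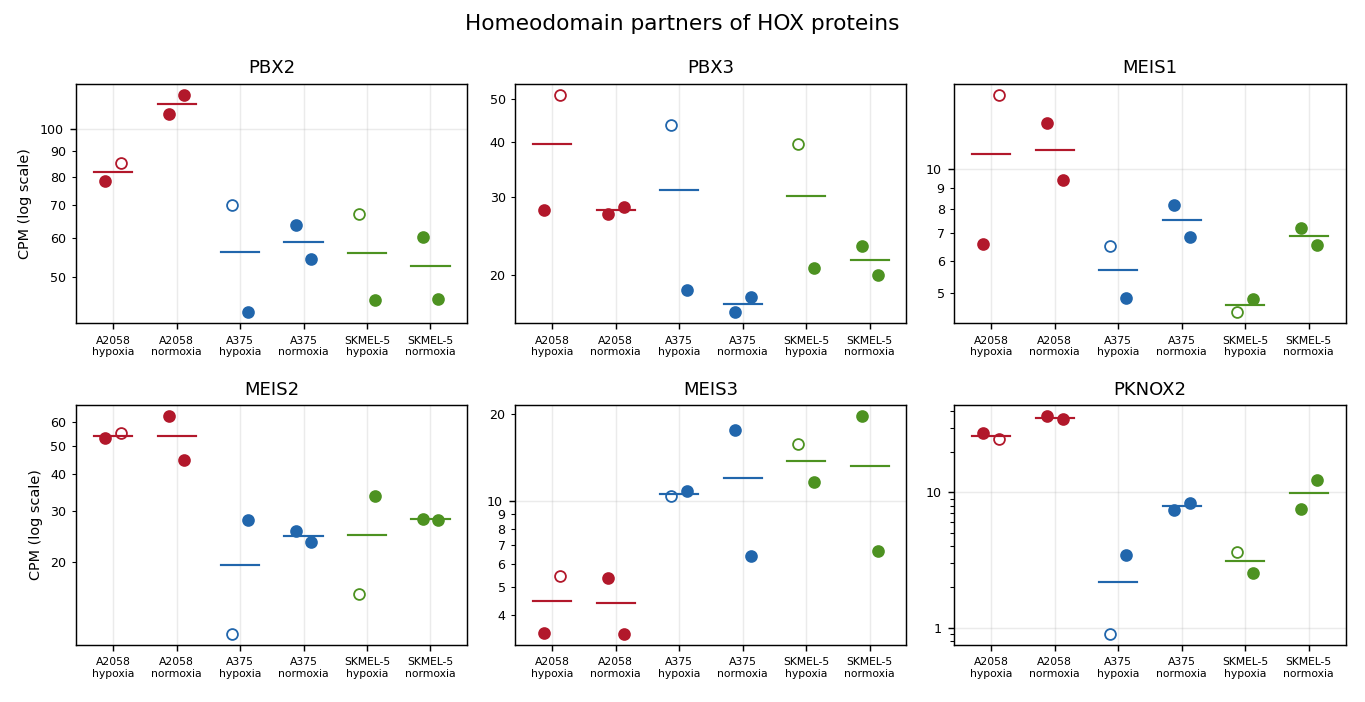
CPM (log axis) of 6 partner genes of HOX proteins by line and oxygen condition, with 1 point per library, bars at the mean of 2, and open points for the 3 hypoxic libraries that stood apart. In A2058, PKNOX2 and MEIS2 are above the other lines.

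Noncoding RNAs of the clusters were called in 33.3% of cases against A375 (27.6% of all) and 26.7% against SKMEL-5 (26.8% of all). Of 15 tested, 4 were higher in A2058 than in A375 (HOXA11-AS, HOTTIP, HOXA-AS2 and HAGLROS) and 1 was lower (HOXC-AS2). Against SKMEL-5, 3 were higher (HOXA11-AS, HOTTIP and HOXA-AS2) and HOXC-AS2 was lower. HOXA-AS2 differed by 1.48 ± 0.36 and 1.43 ± 0.36 on the log2 scale (adjusted p = 0.0109 and 0.0133, edgeR). HOTTIP, which lies beyond HOXA13 and is known to bring MLL complexes to it, was at most 0.891 CPM in any library. HOXC-AS2 had 0 to 0.138 CPM in A2058, 0.691 to 1.55 CPM in A375 and 0.931 to 1.35 CPM in SKMEL-5. HOTAIR, a HOXC transcript tied to Polycomb silencing of HOXD, had 0.749 to 3.09 CPM and was called in neither comparison (adjusted p = 0.273 and 0.175).

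Of 14 genes flanking the clusters, 3 were higher in A2058 than in A375 and 1 was lower (28.6%, beside 27.6% of all tested genes). PRAC2, beside HOXB13, was higher by 3.54 ± 0.62 at 0.275 to 1.38 CPM (adjusted p = 0.00154, edgeR), and LNPK, beside HOXD, by 1.37 ± 0.31 (adjusted p = 0.00774). HIBADH was higher by 0.90 ± 0.29 (adjusted p = 0.0405), and HNRNPA1 was lower, at -1.07 ± 0.26 (adjusted p = 0.0115). Against SKMEL-5, PRAC2 and LNPK were higher and HNRNPA1 was lower (21.4%, beside 26.8% of all tested genes). The LNPK call against SKMEL-5 was lost in 7 of 12 fits that each left out a library, and over the 12 the difference ran from 0.67 (adjusted p = 0.14, without A2058 hypoxia replicate 2) to 1.25. The PRAC2 difference from A375 was 4.21 without A375 normoxia replicate 1. Of 27 genes of the Polycomb complexes, which keep HOX clusters silent, 1 was called against A375 (BMI1, lower). Against SKMEL-5 it was 3 (BMI1 and PHC2 lower, JARID2 higher). These were 3.7% and 11.1%, below the shares of all tested genes. Of 19 Trithorax genes and H3K27 demethylases, 3 were called in each comparison (15.8%), the demethylase KDM6A being lower in A2058 in both. The calls were 1 higher and 2 lower against A375, and 2 higher and 1 lower against SKMEL-5. UTY, of the same list, went the other way from KDM6A, with a mean of 0.754 CPM per kb in A2058 and 0 in A375 and SKMEL-5. Of 16 genes of retinoic acid, the signal that switches HOX clusters on in the embryo, 6 were higher and 6 lower against A375. Against SKMEL-5, 7 were higher and 6 lower. The shares called were 75% and 81.2%, beside 27.6% and 26.8% of all tested genes. STRA6, a receptor that takes vitamin A into the cell, was lower in both (-5.94 ± 0.77 and -5.45 ± 0.76, adjusted p = 0.000228 and 0.00036, edgeR), and CRABP1, a retinoic acid carrier, had 16 to 100 counts in the A2058 libraries and 0 in the other 8. PDX1, the 1 ParaHox gene tested, was lower in both, with 0 counts in all A2058 libraries.

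In hypoxia no HOX gene passed the test in any line. Of 38 HOX genes, 0 were called by edgeR in the mean of the 3 lines, beside 1.12% of all tested genes (0.978% higher and 0.143% lower). Single lines gave 0 too, beside 0.0102% of all genes for A2058 (0.00509% in each direction) and 0% for A375 and for SKMEL-5. At an unadjusted p under 0.05 there were 10 of 38 in the 3-line mean, beside 19.0% of all genes, and 6, 6 and 4 in A2058, A375 and SKMEL-5, beside 9.16%, 5.60% and 6.53%. limma-voom also called 0 in the 3-line mean, where DESeq2 called 5 HOX genes among 1543 genes in all: HOXA13 and HOXD11 higher, HOXB4, HOXC8 and HOXD12 lower. Without the low-count filter edgeR called these 5 and HOXC10, among 1855. The count also moved with single libraries: to 5 without A375 hypoxia replicate 2, the same 5 genes, when 1120 genes (5.36%) were called in all, to 2 (HOXA13 and HOXC8) without A2058 hypoxia replicate 1, and to 1 (HOXA13) without A2058 normoxia replicate 1. For the fits without an A2058 library the number of all genes called is not given here. The test of equal response in the 3 lines called 0 HOX genes and 0 of all genes. Its smallest unadjusted p among HOX genes was 0.0318, for HOXD4, and 1 of 38 was under 0.05, beside 1.60% of all.

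Most of the estimates were small and negative. The median log2 change over the 38 genes in the 3-line mean was -0.29, and 11 of 38 were above 0, beside a median of 0.02 and 51.0% above 0 over all tested genes. The medians were -0.20 in HOXA, -0.48 in HOXB, -0.27 in HOXC and -0.07 in HOXD.

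**Figure D4:**
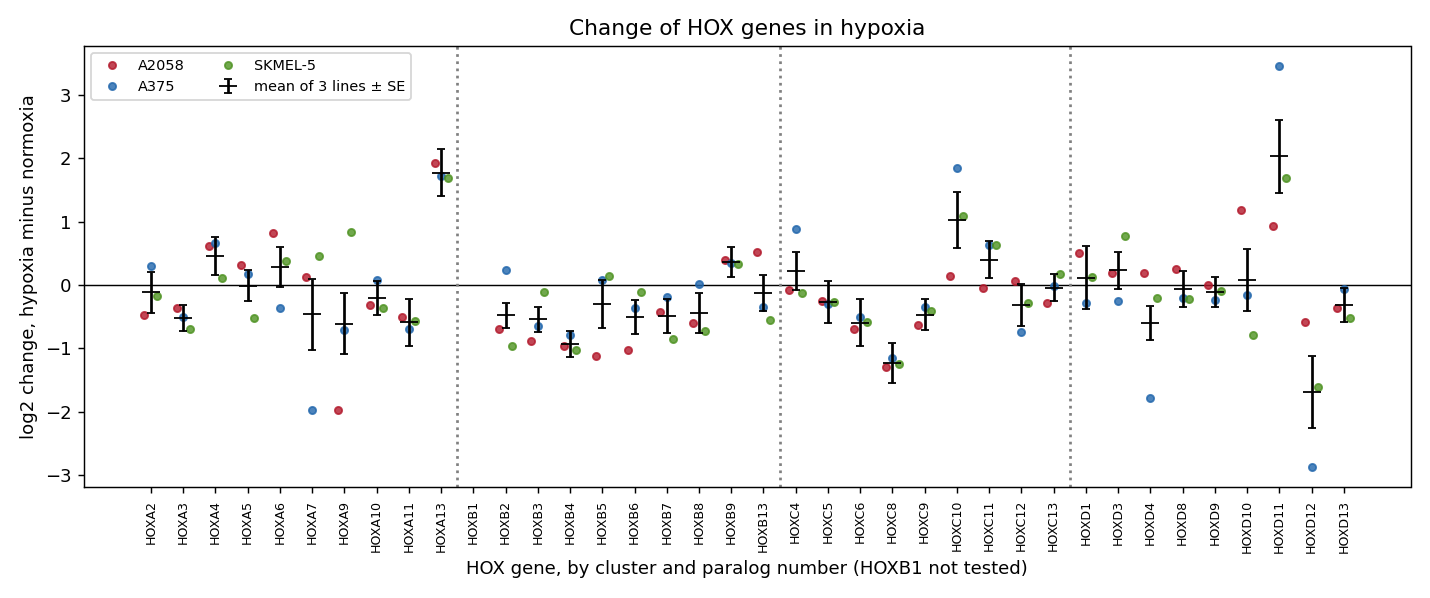
Log2 change in hypoxia relative to normoxia for HOX genes in cluster order, with a point for each line and a black mark for the 3-line mean with its SE. HOXA13, HOXD11 and HOXC10 lie highest and HOXD12, HOXC8 and HOXB4 lowest in the mean, and no gene passed the test.

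HOXA13, the gene at the tail end of HOXA, which patterns the limb tip, hindgut and genital tract, came nearest to the threshold. It had 13.9 and 40.5 CPM in hypoxia and 10.9 and 3.47 CPM in normoxia in A2058, 5.86 and 4.20 CPM in hypoxia and 1.86 and 1.18 CPM in normoxia in A375, and 7.08 and 8.64 CPM in hypoxia and 2.85 and 2.05 CPM in normoxia in SKMEL-5. Both hypoxic libraries were above both normoxic ones in each line. The log2 change was 1.92, 1.72 and 1.68 in A2058, A375 and SKMEL-5, and 1.78 ± 0.37 in the mean (adjusted p = 0.0504, edgeR). In A2058 alone the estimate for HOXA13 moved with single libraries, to 0.97 without hypoxia replicate 2, 2.95 without normoxia replicate 1 and 1.32 without normoxia replicate 2. The mean was 1.39 without the 3 hypoxic libraries that stood apart (adjusted p = 0.283), and leaving out single libraries gave 1.47 to 2.13; DESeq2 gave an adjusted p of 0.000178.

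HOXD11 had 2.91 and 3.22 CPM in hypoxia and 2.54 and 0.661 CPM in normoxia in A2058. Its counts were 26 and 13 in hypoxia and 5 and 0 in normoxia in A375, and 10 and 18 in hypoxia and 4 and 4 in normoxia in SKMEL-5. Hypoxic libraries were again above normoxic ones in each line, at very low level in A375 and SKMEL-5, and the mean log2 change was 2.03 ± 0.57 (adjusted p = 0.113, edgeR). It was 3.38 without A375 normoxia replicate 1, where the other A375 normoxic library has no count. HOXA13 and HOXD11 were 2 of 38 genes (5.26%) without overlap upward in each of the 3 lines, beside 4.86% of all tested genes.

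HOXB4, known for its role in blood stem cells, had 15.3 and 11.3 CPM in hypoxia and 21.9 and 29.9 CPM in normoxia in A2058, 13.6 and 20.5 CPM in hypoxia and 28.9 and 30.1 CPM in normoxia in A375, and 14.7 and 13.99 CPM in hypoxia and 28.4 and 30.3 CPM in normoxia in SKMEL-5. All hypoxic libraries were below the normoxic ones of their line, and the mean log2 change was -0.93 ± 0.20 (adjusted p = 0.0574, edgeR). HOXC8, a thoracic gene, had 8.10 and 2.47 CPM in hypoxia and 13.5 and 12.6 CPM in normoxia in A2058, 4.96 and 9.75 CPM in hypoxia and 16.3 and 16.3 CPM in normoxia in A375, and 6.06 and 6.48 CPM in hypoxia and 15.1 and 14.7 CPM in normoxia in SKMEL-5. Its hypoxic libraries too were below the normoxic ones in each line, by -1.23 ± 0.31 on the log2 scale in the mean (adjusted p = 0.0842). Without the 3 libraries that stood apart the changes were -0.81 for HOXB4 and -0.90 for HOXC8 (adjusted p = 0.255 and 0.222). These were 2 of 38 genes without overlap downward in each line (5.26%, beside 2.79% of all tested genes).

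**Figure D5:**
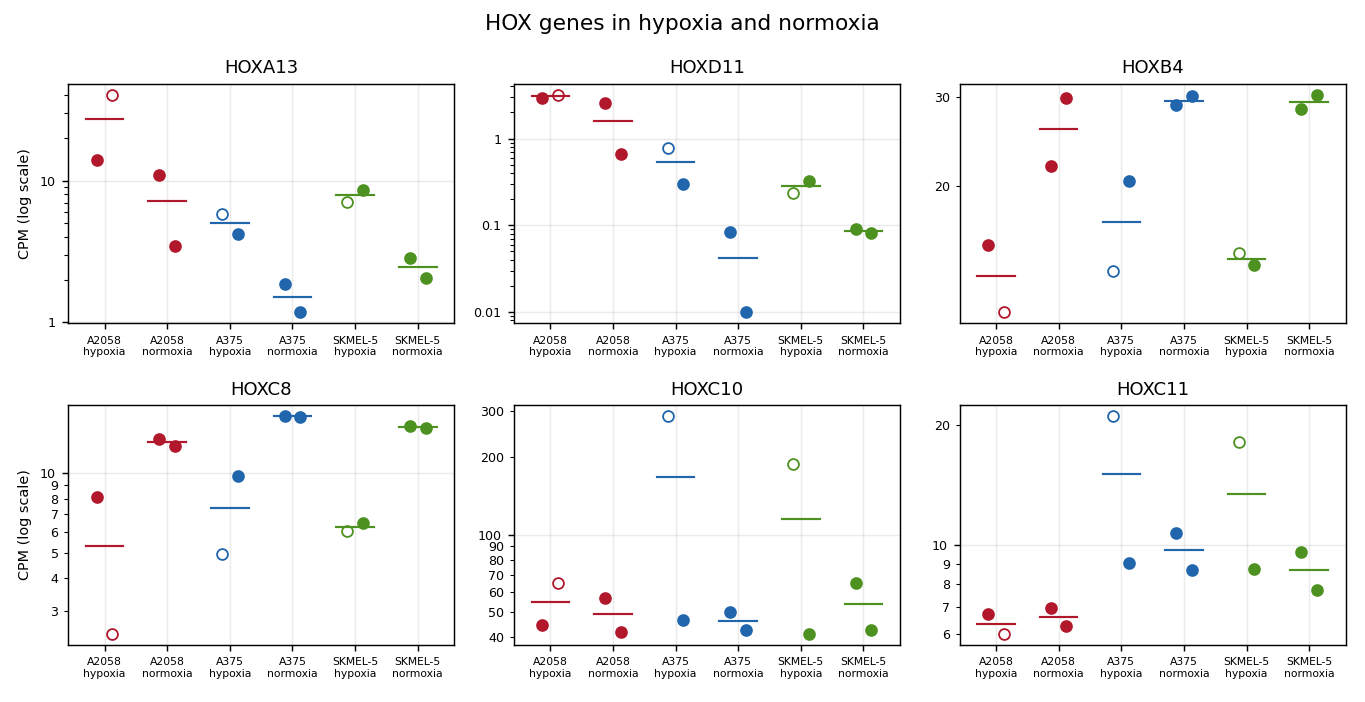
CPM (log axis) of 6 HOX genes in hypoxia and normoxia in each line, with 1 point per library, bars at the mean of 2, open points for the 3 hypoxic libraries that stood apart, and a value of 0 drawn at 0.01. HOXA13 and HOXD11 are higher and HOXB4 and HOXC8 lower in both hypoxic libraries of each line, and HOXC10 and HOXC11 are high in 1 hypoxic library of A375 and 1 of SKMEL-5.

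HOXC10, a lumbar and hindlimb gene, rested on single libraries. It had 287 CPM in A375 hypoxia replicate 1 and 188 CPM in SKMEL-5 hypoxia replicate 1, and 41.3 to 65.0 CPM in the other 10 libraries. Only these 2 libraries stood out, and both are among the 3 that stood apart from their partners. The 3-line mean was 1.03 ± 0.45 (adjusted p = 0.248, edgeR); it was 0.42 without A375 hypoxia replicate 1, 0.54 without SKMEL-5 hypoxia replicate 1, and -0.20 (adjusted p = 0.825) without all 3. The next gene, HOXC11, had 21.0 and 18.1 CPM in the same 2 libraries and 6.01 to 10.8 CPM in the other 10. HOXC-AS1 had 6.43 and 5.75 CPM there and 0.275 to 2.18 CPM elsewhere, and HOTAIRM1, at the head end of HOXA, 13.6 and 9.66 CPM against 1.09 to 5.75 CPM. Of the 38 tested genes, 2 were at least 2-fold lower in all 3 libraries that stood apart than in their partners (HOXC6 and HOXD12). By the same rule 4.95% of all tested genes were lower. None of the 38 was at least 2-fold higher in all 3, beside 3.71% of all tested genes. HOXC6 had 6.96, 9.02 and 11.9 CPM in these 3 libraries (of A2058, of A375, of SKMEL-5), against 19.97, 27.3 and 27.8 CPM in their partners.

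HOXD12 had the lowest estimate, at -1.69 ± 0.57 (adjusted p = 0.163, edgeR), from 0 to 13 counts in the A375 hypoxic, A2058 hypoxic replicate 2 and SKMEL-5 hypoxic libraries. The 32 other tested HOX genes had mean log2 changes between -0.61 (HOXA9) and 0.46 (HOXA4). The smallest adjusted p among them was 0.184, for HOXB3 (-0.55 ± 0.20, edgeR), followed by that of HOXA3 (-0.52 ± 0.20, 0.206). HOXD4 changed by 0.19 for A2058, -1.79 for A375 and -0.20 for SKMEL-5, at levels under 2 CPM in the last 2 lines.

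The promoters of HOXA13 and HOXD11, the genes whose hypoxic libraries were higher in each line, are printed with the HIF cores ACGTG and GCGTG in capitals. HOXA13 (RefSeq, GRCh38.p14, chr7:27200092-27200341, minus strand) has 78.0% GC and no core in this window. HOXD11 (chr2:176107030-176107279, plus strand) has 4, which begin 141, 90, 89 and 49 bases before the RefSeq start; those at 90 and 89 are the 2 strands of 1 CACGTG.
HOXA13: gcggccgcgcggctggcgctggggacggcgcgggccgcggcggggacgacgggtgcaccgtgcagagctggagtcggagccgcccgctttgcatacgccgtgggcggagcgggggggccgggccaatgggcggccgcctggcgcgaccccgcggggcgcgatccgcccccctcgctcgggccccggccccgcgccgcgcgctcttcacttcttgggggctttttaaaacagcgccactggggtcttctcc
HOXD11: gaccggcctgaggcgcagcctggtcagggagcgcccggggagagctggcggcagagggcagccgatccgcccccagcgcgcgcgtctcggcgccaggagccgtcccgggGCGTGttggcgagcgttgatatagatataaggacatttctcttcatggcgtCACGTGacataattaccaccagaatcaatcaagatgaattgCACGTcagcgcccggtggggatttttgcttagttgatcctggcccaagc

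Of the 20 HOX promoter windows, 13 (65.0%) held a core, beside 43.2% of all 35116 promoters, and HOXC4 and HOXC5 have the same window. A match describes the letters of the window and nothing about binding.

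Around the clusters, LNPK, beside HOXD, rose in hypoxia. It had 125 and 271 CPM in hypoxia and 47.9 and 35.2 CPM in normoxia in A2058, 47.0 and 72.1 CPM in hypoxia and 19.3 and 22.2 CPM in normoxia in A375, and 51.0 and 94.8 CPM in hypoxia and 29.2 and 27.5 CPM in normoxia in SKMEL-5. Hypoxic libraries were above normoxic ones in every line, and the mean log2 change was 1.71 ± 0.26 (adjusted p = 0.0139, edgeR). Without the 3 libraries that stood apart it was 1.69 (adjusted p = 0.0341); the call was lost without A2058 normoxia replicate 2 (0.0511), A375 normoxia replicate 1 (0.0785) or 2 (0.0841) and SKMEL-5 normoxia replicate 1 (0.0535) or 2 (0.0738). It was the only one of 14 flanking genes called (7.14%, beside 1.12% of all tested genes). MTX2, on the other side of HOXD, changed by -0.04 ± 0.20.

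Of the 16 retinoic acid genes, 1 was called (6.25%, beside 1.12% of all tested genes): CRABP2, which carries retinoic acid into the nucleus. It had 59.0 and 149 CPM in hypoxia and 19.1 and 3.66 CPM in normoxia in A2058, and in all 3 lines its mean log2 change was 2.65 ± 0.52 (adjusted p = 0.0417, edgeR), or 1.80 (adjusted p = 0.313) without the 3 libraries that stood apart. It lost its call in 8 of 12 fits that left out a library. Of the other lists, 0 of 9 partner genes, 0 of 27 Polycomb genes and 0 of 19 Trithorax genes and demethylases were called. None of 15 noncoding RNAs was called, nor was the 1 ParaHox gene. With 1.12% of all tested genes called, lists this short could hold 0 as well. The smallest p in each were those of PKNOX2 (-1.33 ± 0.32, adjusted p = 0.0726), RNF2 (1.26 ± 0.31, 0.0762), MLLT3 (1.48 ± 0.31, an adjusted p that rounds to 0.05 and was not under it) and HOXA-AS2 (-0.62 ± 0.29, 0.277), all by edgeR.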

How the data were processed

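The authors deposited 1 table of raw read counts per gene ID for the 12 libraries, made from total RNA (RNeasy kit) with the NuGen Universal Plus mRNA kit, per the labels' protocols. Of tools, STAR 2.5.0a, Trim Galore 0.6.1 and bcl2fastq 2.20 stand in the submitters' processing notes, with the build GRCh38. Which program counted reads, whether it used strand and on which gene models is not given in the sources used here. Gene IDs were paired with symbols, and exon lengths and overlaps were taken from GENCODE 29. Genes were kept by edgeR's filterByExpr (minimum count 10, total 15), which left 19636 genes and 38 of the 39 HOX genes. Libraries were scaled by TMM, and 1 model of 6 groups was fitted with edgeR 4.0.16 in R 4.3.3 (quasi-likelihood test, residual df 6, common biological coefficient of variation 0.453, Benjamini-Hochberg adjustment over all tested genes, threshold 0.05). The hypoxia effect was taken in each line and as the mean of the 3 lines, and lines were compared as the mean of both oxygen conditions. limma 3.58.1, DESeq2 1.42.0, other filters and scalings, a replicate block, left-out libraries and single conditions were alternatives. The scripts were tested on simulated data. Totals of 33831569 to 54202819 counts set the floor of 3 counts. Values in every library were given for detected HOX genes that differed in a contrast, were the most posterior or the highest per length of their cluster, or had the smallest hypoxia p; genes of other lists were named where called, at most 4 per direction, or else the 1 with the smallest p. HOXC6, HOXC11, HOXC-AS1, HOTAIRM1, HOTAIR and the lists' further named genes were picked with their values in view. The members and all gene lists were chosen with earlier results of these data known. Results for some genes are not reported here.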

Additional observations from a re-analysis of the deposited data

How the results depend on the processing

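The count of HOX genes called in hypoxia depended on the method: in the 3-line mean it was 0 as reported, 5 with DESeq2, 6 with no low-count filter and 1 with a filter at 1 CPM, and in A375 it was 0 as reported, 1 with DESeq2 (HOXD4) and 2 with no filter (HOXC10 and HOXD11). The numbers of all genes called with the filter at 1 CPM, and by these alternatives in A375, are not given here. Leaving out single libraries gave 0 to 5 in the 3-line mean, 7 to 11 for A2058 against A375 and 6 to 12 for A2058 against SKMEL-5, while 15 to 1120, 3798 to 5765 and 3928 to 6081 of all genes were called. With only normoxic groups compared, 5 and 6 HOX genes were called in these 2 line comparisons, beside 12.9% and 13.2% of all genes. With only hypoxic groups compared, 7 and 5 were called, beside 15.8% and 14.6% of all genes. Fewer samples were compared there, while the spread was still estimated from all 12 libraries. The hypoxia estimate of HOXC10 turned to -0.20 without the 3 libraries that stood apart, by construction without its 2 highest values. Requiring 5 CPM made paralog 10 the most posterior HOXA gene detected in all 3 lines. Per kb, HOXA gave 13.4% of HOX signal in A2058 and 13.7% in SKMEL-5, and HOXD gave 11.8% and 5.13%. Deviations of same-numbered hypoxic and normoxic libraries correlated at -0.304, 0.234 and 0.255 in A2058, A375 and SKMEL-5. These values differ in sign and do not settle whether the numbers pair the libraries. With the replicate block 0 HOX genes were called in hypoxia, among 91 genes in all, and 9 and 11 between lines, where the share of all genes is not given here. Of the alternative values for single named genes, 962 kept direction and side of the threshold, 154 lost and 32 gained a call, and 1 turned its sign. With 2 libraries a group, genes of few counts such as HOXD11 and HOXD12 were estimated least precisely.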
